A study of Mus musculus with 6 samples.

Results

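The cytoplasmic ribosomal protein genes encode the protein parts of the small and large subunits of the ribosome that works in the cytoplasm. They were chosen by name: Rpl or Rps followed by a number and, in some, a paralog suffix, together with Rpsa, Rplp0, Rplp1 and Rplp2, leaving out pseudogenes and the Rps6k kinases. The rule found 80 genes, 32 of the small subunit and 48 of the large subunit, among 17313 genes of the deposited protein-coding table and 53379 genes in all. Their level was measured by RNA sequencing in organoids of mouse pancreatic tumours, which are gel-embedded cultures of epithelial cells. The question was how these genes differ between organoids that kept and organoids that lost the wild-type copy of Trp53, the gene of the p53 tumour suppressor. Each of 3 organoid lines, numbered 6, 23 and 34, gave 1 library of each genotype.

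Every line came from KPC tumours of strain C57/Bl6 mice. By the genotype labels all 6 libraries carried KrasLSLG12D/+ and Pdx1-Cre, in which the Pdx1 promoter drives Cre recombinase in the pancreatic lineage. The 3 libraries titled R172H/+ had the genotype Trp53LSLR172H/+ and are called heterozygous here. The 3 libraries titled R172H/LOH had the genotype Trp53LSLR172H/- and are called LOH, for loss of heterozygosity. No label gives an age, a passage or whether a line is 1 clone. The descriptions of the LOH libraries end in "Nut", which the others lack and no label explains, so whatever it stands for cannot be told apart from genotype.

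Ribosomal proteins assemble with ribosomal RNA in the nucleolus into the subunits that are exported and joined for translation. Their mRNAs are among the most abundant of a growing cell, and most begin with a C followed by a run of pyrimidines, the terminal oligopyrimidine (TOP) start, through which mTORC1 signalling and Larp1 control their translation. Several ribosomal proteins also touch the p53 pathway: Rpl5 and Rpl11, free of the ribosome, bind and inhibit Mdm2, Rpl26 binds p53 mRNA, and Rps27l is a paralog of Rps27 whose gene is a known p53 target.

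The start regions of 8 genes that the results turn on are shown from RefSeq in build GRCm38.p6, as 30 bases read 5′ to 3′ on the strand of the gene. Each window holds 20 bases before the annotated start and 10 from it on, and the capitals mark its longest run of C and T. The first 4 are 2 pairs of paralogs, Rps6 and Rplp2 show long pyrimidine runs at the start, and Rpl26 and Rpl7l1 are shown for their unequal values over the organoid lines.
Rps27l, chr9:66946066-66946095, plus strand: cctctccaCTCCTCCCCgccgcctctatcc
Rps27, chr3:90213639-90213668, minus strand: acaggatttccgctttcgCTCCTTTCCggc
Rpl22l1, chr3:28805488-28805517, plus strand: cgtgcgtgcggcgcaagcccgTTCTCTTCC
Rpl22, chr4:152325706-152325735, plus strand: ccgaCTTCgccctgggaaaagcaatagctg
Rps6, chr4:86857358-86857387, minus strand: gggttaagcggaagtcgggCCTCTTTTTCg
Rplp2, chr7:141447631-141447660, plus strand: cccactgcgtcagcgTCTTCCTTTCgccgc
Rpl26, chr11:68901546-68901575, plus strand: gagaTCTCgcggcaacttacagaaccggaa
Rpl7l1, chr17:46782647-46782676, minus strand: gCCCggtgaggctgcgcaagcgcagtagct

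The runs spanned the start in Rps27 (9 bases), Rps6 (10 bases) and Rplp2 (10 bases), lay before it in Rps27l (9 bases) and just after it in Rpl22l1 (9 bases). The windows of Rpl22, Rpl26 and Rpl7l1 held no run above 4 bases. RefSeq starts can differ from the start in use: these lay 0 to 127 bases from the nearest GENCODE start, 45 bases in Rps6 and 127 in Rpl22.

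RefSeq promoters, 250 bases before to 50 after a start, were matched for 60 of the 80 genes and gave 71 sequences. A TOP start, here a C at the annotated start followed by 4 bases of C or T, was found in 13 of the 71 (18.3%), against 823 of 32851 promoters of all genes (2.51%). The pyrimidine motif CTTTCC, on the strand of the gene from 10 bases before to 50 after the start, where it can overlap a TOP start, was in 17 (23.9%), against 2.59% of all. The letters CCGGAAG, known as a binding motif of ETS family factors, were on either strand of 26 promoters (36.6%), against 8.86% of all. The E box CACGTG, which reads the same on both strands, was in 8 (11.3%), against 7.15%, and the p53 decamer motif, searched on both strands, also in 8 (11.3%), against 8.36% of all promoters. The promoters with a p53 decamer belonged to Rpl35a, Rps19, Rps21, Rps27 and Rps27l. These are matches of letters and say nothing of binding.

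Libraries held from 13680458 to 27917277 expected counts, which are the authors' estimated reads per gene. A count of 3 corresponded to 0.1 to 0.223 CPM, the count scaled to a common library total, far under every member's level. Genes of the protein-coding table took 67.9% to 73.3% of the counts in heterozygous and 61.4% to 67.2% in LOH libraries. All 8 epithelial markers were detected, with a summed level of 5247 to 6084 CPM in heterozygous and 5176 to 11407 CPM in LOH libraries. Fibroblast markers (10 listed, Col3a1 and Thy1 at 0) summed to at most 0.133 CPM with the wild-type allele and 0.931 CPM in LOH. Leukocyte markers (10 listed, Lyz2 and Adgre1 among those at 0) summed to 2 to 2.54 CPM in heterozygous and 4.19 to 15 CPM in LOH libraries, endothelial markers (6 listed, Emcn at 0) to at most 0.1 and 2.62 CPM, and acinar markers (8 listed, Cela2a, Pnlip and Ptf1a at 0) to at most 1.93 and 6.27 CPM. Single genes weighed heavily in these sums. Over the 6 libraries Cd68 had 24 to 315 counts, and every other leukocyte marker at most 16. Tek had 0 to 43 counts and every other endothelial marker at most 6. Among acinar markers Bhlha15 had 13 to 143, Cela1 10 to 41 and the others at most 2. The part of these traces in the differences was not tested. In bulk RNA, fewer cells of a kind and less RNA per cell cannot be told apart. Heterozygous organoids of lines 6, 23 and 34 had 77.3, 76.3 and 86.5 CPM of Trp53 and LOH organoids 73.5, 52.5 and 47.4 CPM, a log2 fold change of -0.47 (SE 0.22, adjusted p = 0.227 by edgeR).

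Ribosomal protein genes were among the most abundant mRNAs of every library. On the length-scaled TPM scale (transcripts scaled by length to the same total in each library), their median was 1005, 1054 and 1047 in the heterozygous libraries of lines 6, 23 and 34, against 809, 646 and 670 in the LOH libraries. The groups did not overlap in this median. The same held for all protein-coding genes with a TPM of at least 1. Their median was 13.6, 11.3 and 11.6 in heterozygous and 10.1, 9.13 and 8.88 in LOH libraries, so the fall was not particular to the set. From 77 to 79 of the 80 genes lay among the 500 highest protein-coding genes of each library.

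The genes were not equally abundant. In heterozygous libraries 70 to 71 of them lay within 2-fold of the library's median, and in LOH libraries 63 to 64. The spread over genes (SD of log2 TPM) was 0.816, 0.872 and 0.846 in heterozygous libraries and 0.934, 1.04 and 1.05 in LOH, so it was wider in every LOH library. The highest mean TPM over the 6 libraries belonged to Rps12 (2219), Rps2 (2204) and the stalk protein gene Rplp1 (1981). The lowest belonged to Rpl7l1 (41.2), Rpl22l1 (139) and Rpl27 (160), of which Rpl7l1 and Rpl22l1 are paralogs of more abundant genes. The value of Rpl27 is uncertain, since the counts assigned to its 3 named pseudogenes came to 205.73% of its own.

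The order of the genes was more alike among heterozygous libraries than among LOH libraries. As a description over the 80 genes, the SD of the log2 TPM difference between 2 libraries was 0.11 to 0.16 for pairs of heterozygous libraries and 0.35 to 0.42 for pairs of LOH libraries. Between the 2 libraries of the same line it was 0.35 to 0.41. Heterozygous libraries of different lines thus differed less in this profile than the 2 genotypes of 1 line did. Genes of 1 library share its depth and its RNA, and the mean fragment length, 146 to 162.3 bases in heterozygous and 155.4 to 158 in LOH libraries, overlapped between the groups.

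As a share of all protein-coding counts, the set took 6.09% (95% Wilson interval 6.08% to 6.1%) in the heterozygous library of line 6, 7.02% (7% to 7.03%) in that of line 23 and 7.25% (7.24% to 7.27%) in that of line 34. In the LOH libraries the share was 6.49% (6.47% to 6.5%), 5.65% (5.64% to 5.66%) and 5.56% (5.55% to 5.57%). The intervals cover counting error only, and PCR copies cannot be told from separate molecules in these reads. The means were 6.79% ± 0.61 (SD, n = 3) and 5.9% ± 0.51 (SD, n = 3), and the groups overlapped, because in line 6 the LOH library had the higher share while in lines 23 and 34 it had the lower. As a share of protein-coding TPM the set took 17.41%, 19.43% and 19.52% in heterozygous and 18.7%, 17.58% and 16.9% in LOH libraries, which again overlapped. Small subunit genes took 40.7% to 41.2% of the set's counts in heterozygous and 39.2% to 39.6% in LOH libraries. These ranges did not overlap, but on the TPM scale they did (42.7% to 43.5% and 41.1% to 42.8%).

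**Figure D1:**
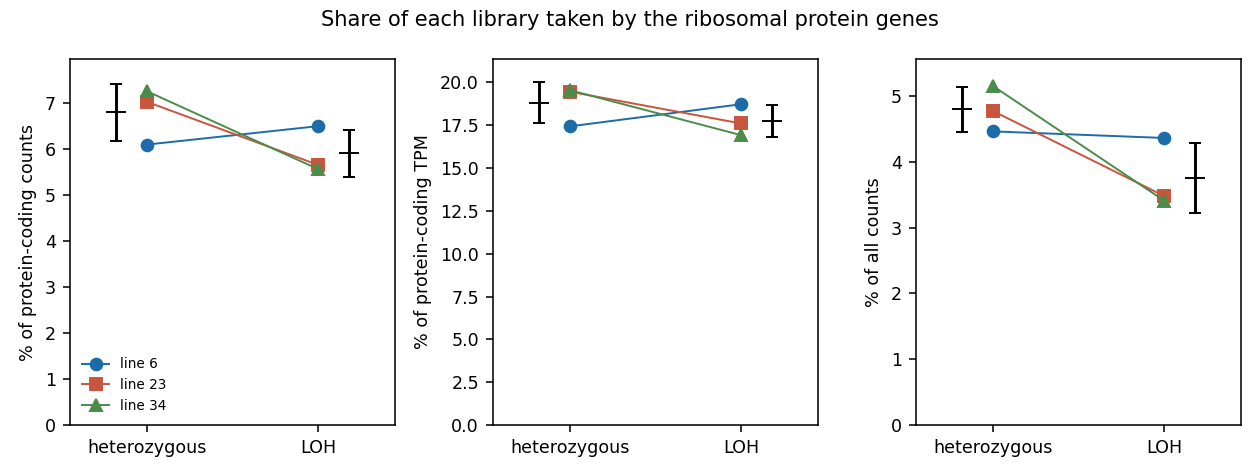
Share of each library taken by the 80 ribosomal protein genes, in percent of protein-coding counts (left), of protein-coding TPM (middle) and of all counts (right), with points joined by organoid line and black bars for the mean ± SD of 3 libraries. On the left, line 6 goes from 6.09% in the heterozygous to 6.49% in the LOH library, while lines 23 and 34 go from 7.02% to 5.65% and from 7.25% to 5.56%.

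All 80 genes passed the filter on low counts and were tested with edgeR in a fit over 14537 genes. Rps27l, lower in LOH, was the only member with an adjusted p under 0.05, so 1 of 80 was called lower and 0 higher. In the same test 1.66% of all genes were called lower and 3.55% higher, 5.21% in all, so the members' count was not above the background. At an unadjusted p under 0.05 edgeR had 5 members, against 25.3% of all genes. Rps27l, Rps6, Rpl3 and Rps9 were lower in LOH, and 1 was higher. Rpl3 and Rps9 were chosen for naming after these values were seen. With the organoid line as a block edgeR called 0 members, against 1.47% of all genes, with 2 at an unadjusted p under 0.05, and DESeq2 called 2, Rps27l and Rps6, both lower in LOH, where 5.28% of all genes were called lower. Nothing in the labels says that the libraries of a genotype came from separate cultures beyond their 3 lines, so p-values measure the spread between these samples, part of which may be technical.

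The set as a whole lay slightly below 0. Its median log2 fold change was -0.17, with 56 of 80 genes below 0, against a median of 0.06 and 46% below 0 over all genes tested. The middle of the distribution, from the 25th to the 75th percentile, ran from -0.326 to 0.02. Small subunit genes had a median of -0.17 (25 of 32 below 0) and large subunit genes one of -0.16 (31 of 48 below 0). The medians of the 3 lines were unlike: the median log2 ratio of LOH to heterozygous CPM was 0.14, -0.44 and -0.18 in lines 6, 23 and 34, and 25, 68 and 63 genes were lower in LOH in these lines. Without the 2 libraries of line 23 the median was -0.02, and without those of line 6 it was -0.32.

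Across the 3 lines, 21 of the 80 genes were lower in LOH in every line (21.6% of all genes tested were) and 5 were higher (22.9% of all genes were), among them Rpl21, Rpl23a, Rpl30 and Rps28, named here after their values were seen. In CPM the 3 LOH values all lay below the 3 heterozygous values in 7 genes (8.75%, against 16.5% of all genes tested): Rps27l, Rpl22l1, Rps6, Rpl3, Rps9, Rps19 and Rps20. They all lay above in 3 genes (3.75%, against 16.4%), Rpl30 and Rps28 among them. Both shares were below the background.

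**Figure D2:**
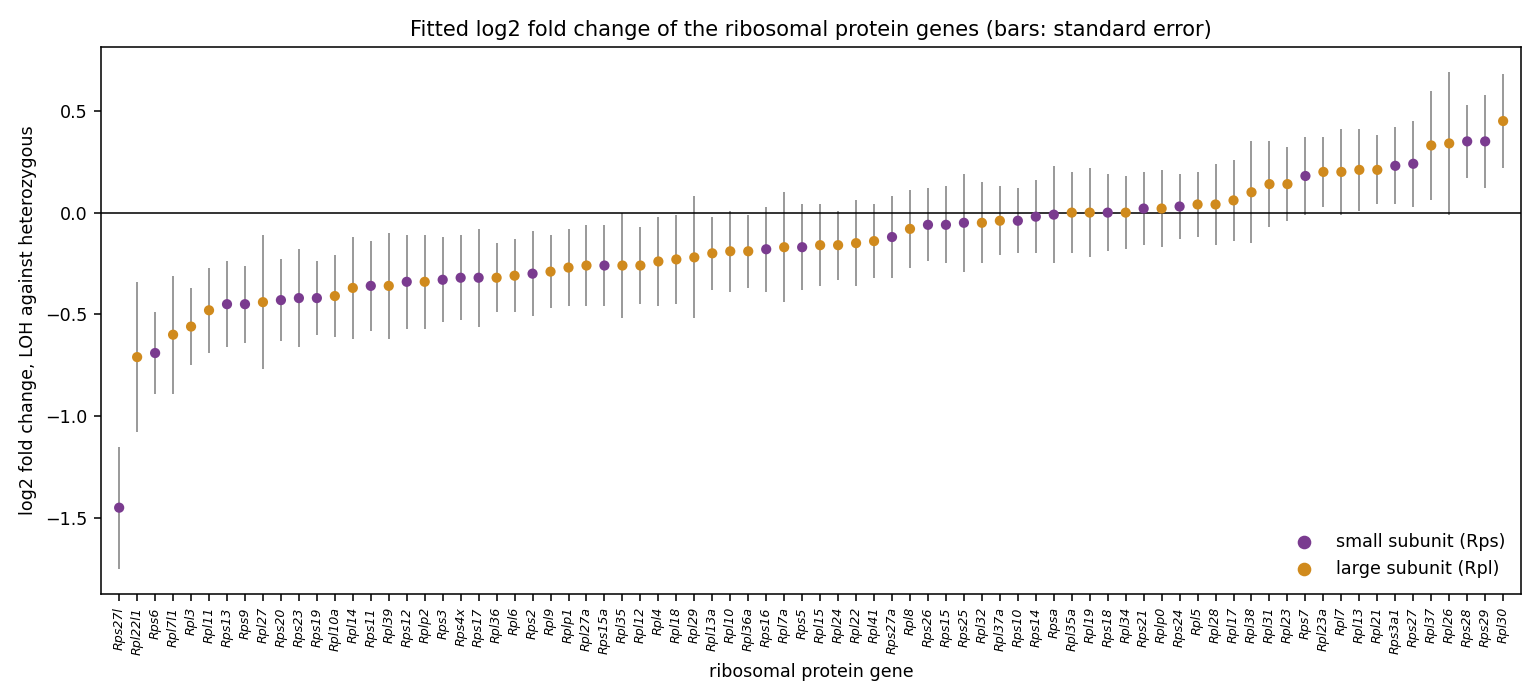
Fitted log2 fold change (LOH against heterozygous, 3 libraries each) of 78 of the 80 ribosomal protein genes, ordered by value, with vertical lines of 1 standard error and colours for the small and the large subunit. Rps27l at -1.45 stands apart from the rest, which run from -0.71 in Rpl22l1 to 0.45 in Rpl30.

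Rps27l (ENSMUSG00000036781.13, chromosome 9, 66946086 to 66949516, plus strand) fell in LOH organoids. Heterozygous organoids of lines 6, 23 and 34 had 95.1, 146 and 134 CPM, and LOH organoids 48.7, 29.9 and 58.9 CPM. All values by library keep this order of lines. The groups did not overlap, and LOH was lower in each of the 3 lines, with log2 ratios of -0.97, -2.29 and -1.19. The means were 125 ± 26.7 and 45.8 ± 14.7 CPM (SD, n = 3), a log2 fold change of -1.45 (SE 0.30, adjusted p = 0.0428 by edgeR). With the organoid line as a block the value was -1.48 and the call was lost (adjusted p = 0.106 by edgeR). The call was also lost without the LOH library of line 23 (adjusted p = 0.0647 by edgeR) and without the heterozygous library of line 6, 23 or 34 (edgeR adjusted p = 0.121, 0.167 and 0.193).

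Rps27, the partner of Rps27l, did not share this pattern. It stood at 270, 389 and 347 CPM with the wild-type allele and 460, 394 and 333 CPM in LOH, with a log2 fold change of 0.24 (SE 0.21, adjusted p = 0.51 by edgeR) and overlapping groups. The TPM of Rps27l was 19.6%, 20.1% and 21.3% of that of Rps27 in heterozygous organoids and 5.74%, 4.15% and 9.56% in LOH organoids. Every LOH library was below every heterozygous library in this ratio, which is taken within a library and so does not depend on the scaling between libraries.

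Rpl22l1, the paralog of Rpl22, stood at 66.2, 73.7 and 62.2 CPM with the wild-type allele and 60, 43.2 and 20.2 CPM in LOH. All LOH values were below the heterozygous ones, but line 6 differed little, and the log2 fold change of -0.71 (SE 0.37) did not pass the test (adjusted p = 0.279 by edgeR). Without the LOH library of line 34 the value was -0.39. Rpl22 stood at 175, 222 and 202 CPM with the wild-type allele and 140, 195 and 206 CPM in LOH, which overlapped (log2 fold change -0.15, SE 0.21). The TPM of Rpl22l1 as a percentage of that of Rpl22 was 32.7%, 30% and 26.1% in heterozygous and 39.2%, 21.7% and 7.91% in LOH libraries, with both the highest and the lowest value in LOH.

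Rpl7l1, a paralog of Rpl7, had 103, 122 and 130 CPM with the wild-type allele and 113, 57 and 63.6 CPM in LOH. LOH was lower in lines 23 and 34 and higher in line 6, and the log2 fold change was -0.60 (SE 0.29, adjusted p = 0.243 by edgeR). Without the LOH library of line 6 it was -1.01 and passed the test (adjusted p = 0.0227 by edgeR). Rpl7 stood at 750, 1055 and 935 CPM with the wild-type allele and 1207, 1020 and 910 CPM in LOH, which overlapped (log2 fold change 0.20, SE 0.21). Rpl7l1 came to 5.66%, 4.71% and 5.68% of the TPM of Rpl7 in heterozygous and 3.82%, 2.28% and 2.86% in LOH libraries, lower in each LOH library. Genes on the opposite strand overlap Rpl22l1 (Gm33051) and Rpl7l1 (Gm26904). Such genes also overlap, among others, Rpl3 (Syngr1), Rpl23a (Tlcd1), Rpl30 (AC126028.2) and Rps2 (Snhg9 and Snora78). The kit keeps strand, but the strand setting of the counting is not given in the sources used here, so these values are uncertain.

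**Figure D3:**
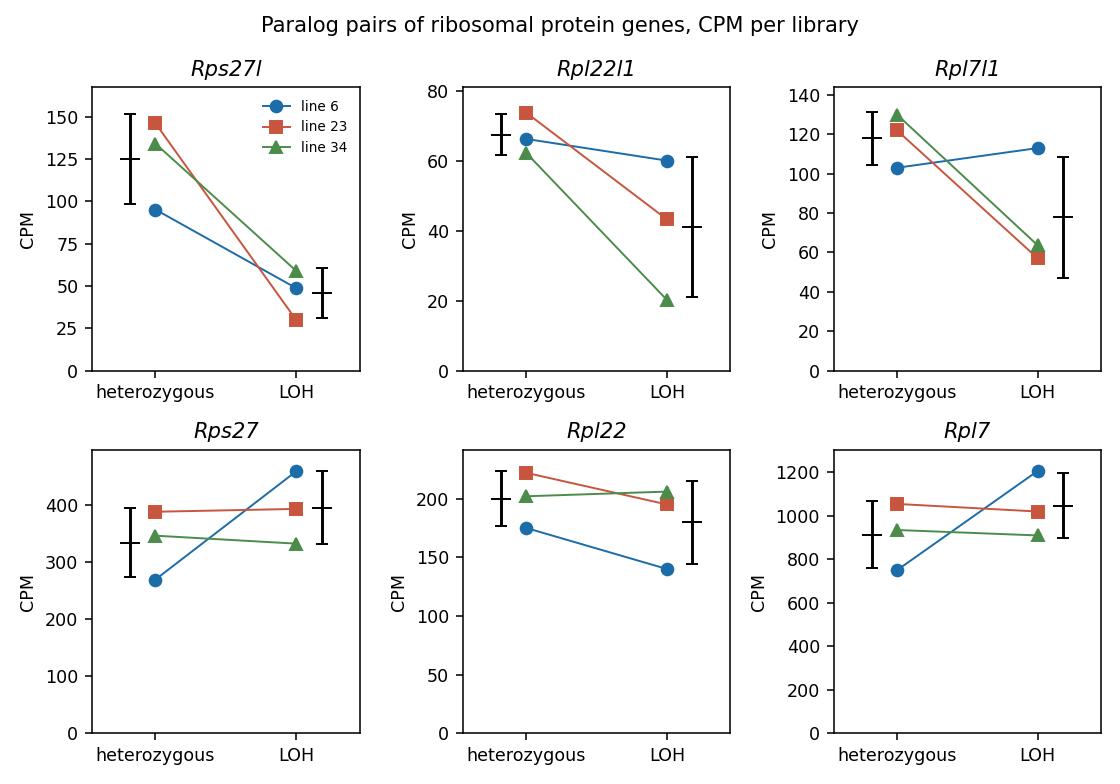
CPM of 3 paralog genes (top: Rps27l, Rpl22l1, Rpl7l1) and of their plain-numbered partners (bottom: Rps27, Rpl22, Rpl7) in each library, joined by organoid line, with black bars for the mean ± SD of 3 libraries. Rps27l goes from 95.1 to 146 CPM in heterozygous down to 29.9 to 58.9 CPM in LOH libraries, while the groups overlap in all 3 partners.

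Among the other genes with the lowest fold changes, Rps6, whose protein is phosphorylated by the S6 kinases, stood at 773, 1149 and 955 CPM with the wild-type allele and 585, 632 and 571 CPM in LOH. The groups did not overlap. Its log2 fold change was -0.69 (SE 0.20) and edgeR left it above the threshold (adjusted p = 0.0912), whereas DESeq2 placed it below (adjusted p = 0.0317, log2 fold change -0.71). Rpl3, of the peptidyl transferase region, stood at 974, 1298 and 1143 CPM with the wild-type allele and 854, 781 and 688 CPM in LOH, with no overlap and a log2 fold change of -0.56 (SE 0.19, adjusted p = 0.126 by edgeR). Rps9, an early-binding protein of the small subunit, had 603, 853 and 739 CPM against 551, 531 and 525 CPM, likewise without overlap (log2 fold change -0.45, SE 0.19, adjusted p = 0.189 by edgeR). Rps19, the gene most often mutated in Diamond-Blackfan anaemia, stood at 400, 477 and 485 CPM with the wild-type allele and 359, 295 and 365 CPM in LOH. Its groups did not overlap either, and its log2 fold change of -0.42 (SE 0.18) did not pass the test (adjusted p = 0.203 by edgeR).

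Of the ribosomal proteins that bind Mdm2, Rpl5 and Rpl11 differed in their values. Rpl5 stood at 311, 300 and 329 CPM with the wild-type allele and 294, 352 and 323 CPM in LOH, nearly equal means (log2 fold change 0.04, SE 0.16, adjusted p = 0.892 by edgeR). The protein-coding gene Fam69a overlaps Rpl5 on the other strand, and the gene body of Rpl5 holds snoRNA genes. Rpl11 stood at 405, 469 and 492 CPM with the wild-type allele and 306, 264 and 408 CPM in LOH. The groups overlapped by a narrow margin, LOH was lower in each line, and the log2 fold change was -0.48 (SE 0.21, adjusted p = 0.213 by edgeR).

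Rpl26 (chromosome 11, 68901583 to 68906989) was high in 1 library. It stood at 432, 542 and 560 CPM with the wild-type allele and 435, 473 and 1030 CPM in LOH, so that the LOH library of line 34 was above all others. The log2 ratio of LOH to heterozygous was 0.01, -0.19 and 0.88 in lines 6, 23 and 34, and the fitted value of 0.34 (SE 0.35) did not pass the test (adjusted p = 0.576 by edgeR). Without the LOH library of line 34 the fitted value was -0.18.

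Rpl26 lies on the chromosome of Trp53, 673 kb before its start at 69580359. Among the 10 nearest genes averaging 5 CPM or more on each side, from 64979038 to 69325793, the median log2 ratio was -0.03, -0.07 and 0.45 in lines 6, 23 and 34. In line 34, 7 of these 20 neighbours had a ratio above that of Rpl26.

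**Figure D4:**
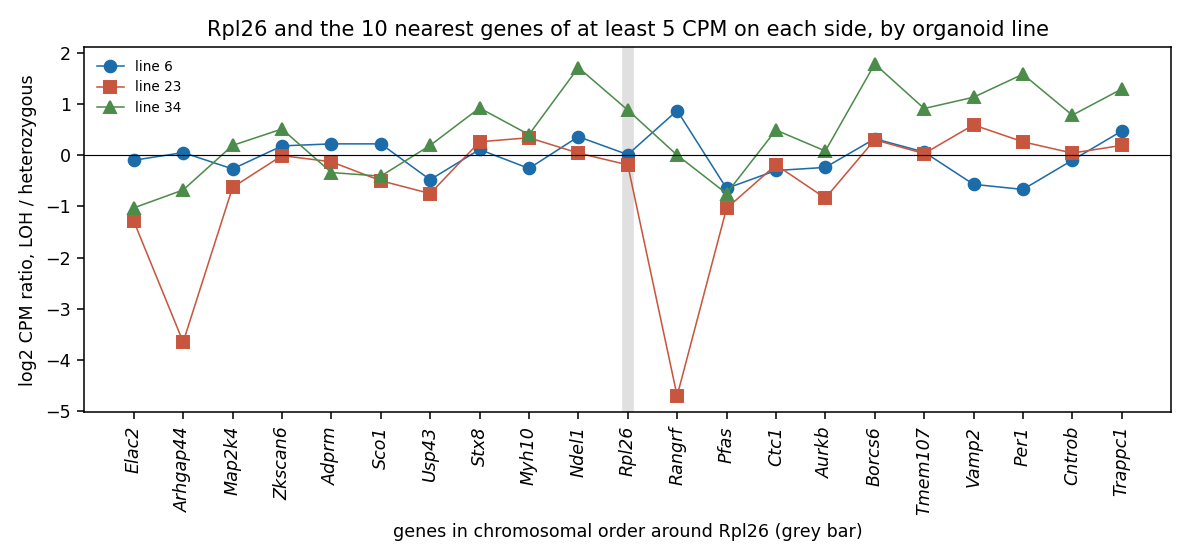
Log2 ratio of LOH to heterozygous CPM in each organoid line for Rpl26 (grey bar) and its 10 nearest genes of at least 5 CPM on each side, in chromosomal order. In line 34 Rpl26 is at 0.88 with a median of 0.45 over the 20 neighbours, while in lines 6 and 23 the medians are -0.03 and -0.07.

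The stalk proteins Rplp0, Rplp1 and Rplp2, which recruit translation factors to the large subunit, overlapped between the groups in CPM, though not in TPM. Rplp0 stood at 1672, 2117 and 2104 CPM with the wild-type allele and 2064, 1750 and 2152 CPM in LOH (log2 fold change 0.02, SE 0.19). Rplp1 had 627, 787 and 815 CPM against 662, 542 and 639 CPM (-0.27 on the log2 scale, SE 0.19), and Rplp2 had 336, 480 and 424 CPM against 283, 292 and 404 CPM (-0.34, SE 0.23). None of the 3 passed the test (edgeR adjusted p = 0.963, 0.393 and 0.378), and the sign for Rplp0 turned to -0.01 under upper quartile scaling. Rpsa, which also serves as a laminin receptor precursor, stood at 1290, 1735 and 1668 CPM with the wild-type allele and 1836, 1137 and 1678 CPM in LOH, with both extremes in LOH (log2 fold change -0.01, SE 0.24).

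Rps12 and Rps2, the genes of highest mean TPM, overlapped in CPM as well, but in TPM every LOH value lay below the heterozygous ones. Rps12 stood at 794, 1020 and 1056 CPM with the wild-type allele and 558, 853 and 852 CPM in LOH (log2 fold change -0.34, SE 0.23). It was lower in LOH in each line, by -0.51, -0.26 and -0.31 on the log2 scale. Rps2 had 1761, 2108 and 2193 CPM with the wild-type allele and 1968, 1332 and 1611 CPM in LOH (log2 fold change -0.30, SE 0.21), with the LOH library higher in line 6 only. Rpl27 was among the genes of lowest mean TPM. It had 88.4, 76.9 and 101 CPM with the wild-type allele and 98.4, 41.6 and 56.6 CPM in LOH (log2 fold change -0.44, SE 0.33). Its value was -0.11 once the counts of its named pseudogenes were added, and without the LOH library of line 6 it was -0.90 and passed the test (adjusted p = 0.0477 by edgeR).

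Rpl30, Rps29 and Rps28 were among the 4 genes with the highest fold changes, none of which passed the test. Rpl30 stood at 274, 329 and 338 CPM with the wild-type allele and 553, 376 and 357 CPM in LOH, without overlap (log2 fold change 0.45, SE 0.23, adjusted p = 0.26 by edgeR). Rps28 had 180, 209 and 224 CPM against 296, 248 and 236 CPM (0.35, SE 0.18, adjusted p = 0.278 by edgeR), and Kank3 overlaps it on the other strand. Rps29 overlapped between the groups, with 205, 280 and 288 CPM against 355, 375 and 252 CPM (0.35, SE 0.23, adjusted p = 0.383 by edgeR). In Rpl30 and Rps28 line 6 had the largest of the 3 line ratios, 1.01 and 0.71 on the log2 scale. Without the LOH library of line 6, 4 members were called, all lower in LOH: Rps27l, Rpl10a, Rpl27 and Rpl7l1, where 8.68% of all genes were called lower.

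On the TPM scale the set looked different from CPM. There 59 of 80 genes (73.8%) had all LOH values below all heterozygous values and 0 had them above, against 37.6% and 6.44% of 11918 genes that reached a TPM of 1 in 3 or more libraries. The summed TPM of the set was 85097, 89513 and 90090 in heterozygous and 73822, 57541 and 59871 in LOH libraries, without overlap. Genes of the protein-coding table together took 48.9%, 46.1% and 46.2% of all TPM in heterozygous and 39.5%, 32.7% and 35.4% in LOH libraries, so the denominator of TPM moved with genotype too. With limma on log2(TPM + 1) the median difference of the set was -0.55 and that of all genes -0.35, so the set lay -0.20 from all genes, compared with -0.23 in the edgeR fit. Over all settings with the 6 libraries this gap ran from -0.52, with limma on log2(TPM + 1) without a filter, to -0.13, with log2(TPM + 0.1). The filtered limma fit on log2(TPM + 1) called 16 members, all lower in LOH, where 13.7% of genes were called lower. Over all genes it called 1631 lower and 280 higher, against 241 lower and 516 higher with edgeR.

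Members on some chromosomes lay to the same side as the other genes there. All 5 members on chromosome 4, among them Rpl11, Rpl22, Rps20 and Rps6, lay below 0, with a median of -0.43, and the median of 621 other genes of that chromosome averaging 5 CPM or more was -0.33. On chromosome 7, 13 of 14 members were below 0, with a median of -0.29 against -0.15 for the other genes there, and on chromosome 9 all 7, including Rps27l, with -0.24 against -0.09. Chromosome 17 went the other way, with 6 of 7 members below 0 and a median of -0.30 against 0.09. On some other chromosomes the fitted medians of members and of other genes both lay above 0. They were 0.14 against 0.14 on chromosome 1 (3 members), 0.12 against 0.19 on chromosome 3 (4 members) and 0.26 against 0.31 on chromosome 12 (2 members). The match did not hold in each line. On chromosome 1 members had medians of 0.61, -0.08 and -0.16 in lines 6, 23 and 34, and other genes -0.1, 0.23 and 0.15. On chromosome 3 these were 0.4, -0.17 and -0.1 against 0.22, 0.11 and 0.17. Signs also parted in line 34 on chromosomes 7 and 12 and in lines 6 and 34 on chromosome 9. On chromosome 4 both medians were below 0 in every line.

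The authors' transcript tables were read for 2 genes known for alternative splicing. Of the TPM of Rps24, the transcript Rps24-201 took 84.9%, 84.5% and 86.5% in heterozygous and 86.5%, 84.4% and 86.1% in LOH libraries, which overlapped. The rare transcript Rps24-202 took 0.27%, 1.34% and 0.55% in heterozygous and 1.19%, 2.24% and 1.91% in LOH libraries, higher in LOH in each line with overlap between the groups. It rested on 35, 92 and 82 counts in heterozygous and 104, 282 and 215 in LOH libraries. Other rare transcripts went the other way. The shares of Rps24-206, Rps24-208, Rps24-209 and Rps24-212, at most 0.5%, were lower in LOH without overlap. Those of Rps24-204, Rps24-207 and Rps24-211 overlapped. Of the TPM of Rpl22l1, the transcript Rpl22l1-204, annotated as a target of nonsense-mediated decay, took 3.9%, 5.03% and 3.14% in heterozygous libraries. In LOH libraries it took 3.04%, 10.5% and 10.1%, so its share was high in lines 23 and 34. These shares rest on few counts, 75, 50 and 56 in heterozygous and 31, 118 and 41 in LOH libraries. A higher share need not mean more of this transcript, since Rpl22l1 itself was lower in LOH in lines 23 and 34. The main coding transcript Rpl22l1-206 took 72.1%, 70.5% and 68.8% against 67.9%, 66.3% and 60.3%, lower in every LOH library.

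The genes that build the ribosome lay further below 0 than the ribosomal protein genes. Of 134 tested biogenesis genes (RNA polymerase I, snoRNP and small subunit processome, small subunit maturation, and large subunit assembly and export), 6 fell, 0 rose and 128 did not pass the test, where 1.66% of all genes fell, with a median log2 fold change of -0.68 and 123 below 0. They had 58 genes at an unadjusted p under 0.05 in edgeR, all lower in LOH, against 10.6% of all genes that were lower at that p. The 6 were Mrto4, of the large subunit stalk assembly (-1.49, SE 0.28, adjusted p = 0.0335 by edgeR), the small subunit export factor gene Ltv1 (44.5 ± 5.88 CPM in heterozygous and 22.2 ± 2.47 CPM in LOH, SD, n = 3, adjusted p = 0.036 by edgeR), the helicase gene Ddx21 (-1.23, SE 0.26, adjusted p = 0.0443 by edgeR), Nop16, Rrp1b and the snoRNP core gene Nop58 (-0.80, SE 0.18, adjusted p = 0.0499 by edgeR). By line the median of the 134 was -0.20, -1.01 and -0.91, against 0.14, -0.44 and -0.18 for the ribosomal protein genes, so both lists were lowest in line 23.

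These counts of biogenesis genes moved with single libraries. With the line as a block edgeR called 0, with 58 at an unadjusted p under 0.05. Without the LOH library of line 6 it called 77, without that of line 34 it called 1, and without that of line 23, or without any 1 of the heterozygous libraries, it called 0. The calls over all genes moved as well, to 2449 of 15132 without the LOH library of line 6, 796 without that of line 34 and 451 without that of line 23, and to 0 without any 1 heterozygous library, with 2272 to 2966 at an unadjusted p under 0.05. For the RNA polymerase I list alone 0 of 15 passed. In that list 3 genes had an unadjusted p under 0.05 in edgeR, all lower in LOH, against 10.6% of all genes that were lower at that p. They were led by the initiation factor gene Rrn3 (-0.83, SE 0.24, adjusted p = 0.0893 by edgeR) and the subunit gene Cd3eap (-1.16, SE 0.36, adjusted p = 0.104 by edgeR).

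Mitochondrial ribosomal protein genes, the set most like it by function, had a median log2 fold change of -0.44, with 69 of 78 below 0. Of them 1 fell, Mrpl36 (-1.14, SE 0.25, adjusted p = 0.049 by edgeR), and 0 rose, with 21 at an unadjusted p under 0.05, all lower in LOH, against 10.6% of all genes that were lower and 25.3% in either direction. The difference between these lists and the cytoplasmic set was not tested. With the block 0 were called, with 15 at an unadjusted p under 0.05, and without the LOH library of line 6 it was 25.

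Translation factors whose mRNAs share the TOP start had a median of -0.21, with 18 of 28 below 0. Of them 0 passed and 9 had an unadjusted p under 0.05 in edgeR, 7 lower and 2 higher, against 25.3% of all genes. The smallest p-values were those of the nucleolar protein gene Npm1 (-0.68, SE 0.18, adjusted p = 0.073 by edgeR) and the helicase gene Eif4a1 (-0.81, SE 0.22, adjusted p = 0.078 by edgeR). Of 6 ribosomal protein genes outside the name rule 5 were above 0, with a median of 0.26: Fau, which encodes Rps30, stood at 228, 290 and 265 CPM with the wild-type allele and 418, 436 and 325 CPM in LOH (0.59, SE 0.19, adjusted p = 0.117 by edgeR) without overlap. The 21 genes of mTORC1 signalling and TOP mRNA control had a median of -0.01. Of these 1 rose and 0 fell, where 3.55% of all genes rose and 1.66% fell. Deptor, an inhibitor of mTOR, rose from 44.3, 29.4 and 37.9 CPM with the wild-type allele to 69.7, 101 and 98.4 CPM in LOH (1.27, SE 0.24, adjusted p = 0.0352 by edgeR). With the block its adjusted p was 0.116 in edgeR.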

How the data were processed

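Per the labels' protocols, the 6 libraries were prepared from total RNA with a kit that keeps strand. STAR 2.5.2b, RSEM 1.3.0, FastQC 0.11.5, DESeq2 1.44.0 and build GRCm38.p5 are named in the submitters' processing notes. The deposited tables name GENCODE mouse release 16 as annotation. Expected counts are the authors' RSEM estimates per gene, which share reads between near-identical copies, so values of genes with many pseudogenes are uncertain. TPM values were deposited by the authors and are scaled for length and depth. The deposited normalized tables hold a signal, the expected count divided by 1 factor per library, and were used to define the protein-coding set. Effective length, another deposited value, was used for the relation with length. Coordinates came from GENCODE mouse release 21 on GRCm38.

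Expected counts were rounded, filtered with filterByExpr, scaled by TMM and tested over 14537 genes with the two-sided quasi-likelihood test of edgeR 4.0.16 (R 4.3.3), with Benjamini-Hochberg adjustment over all genes and a threshold of 0.05. CPM is scaled by TMM, and log2 ratios within a line used a prior count of 2. A fold change on log2(TPM + 1) understates the change of low genes. The alternatives were upper quartile and RLE scaling, a fit of unfiltered genes, a minimum of 10 counts per library, protein-coding genes only, counts of 292 named pseudogenes added to their parent genes, the organoid line as a block, each library or line left out, DESeq2 1.42.0, and limma 3.58.1 on log2(TPM + 1) and log2(TPM + 0.1). Figures were made with matplotlib 3.10.9.

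Libraries were grouped by title. Libraries with the same number come from the same organoid line, so the numbers pair the samples. Deviations from the group means correlated across all genes by -0.3, 0.01 and 0.29 in lines 6, 23 and 34, and across the 80 members by 0.25, 0.16 and 0.25, and genes are not independent replicates. The members and lists were chosen with earlier results of these data known, and no test was made over a list. A few genes that the rules select are not reported here. The genes named were paralogs and their partners, Rpl5, Rpl11, Rpl26, Rps6, Rps19, Rpsa and the stalk genes, every member with an adjusted p under 0.05, the 4 largest and 4 smallest fold changes, the 3 highest and 3 lowest mean TPM, and from each other list up to 3 genes that passed in each direction or the 2 with the smallest p. A few others were named after their values were seen. In data simulated for this comparison over 14133 tested genes, the test called 47 of 50 genes changed 16-fold, 15 of 50 changed 4-fold, 1 of 50 changed 2-fold and 0 of 50 changed 1.5-fold, with 3 false calls. With the block these were 46, 10, 0 and 0, with 6 false calls over 14082 genes.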

Additional observations from a re-analysis of the deposited data

Results flagged for a closer look

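In 14 of 24 results compared over the organoid lines, LOH was higher than heterozygous in at least 1 line and lower in at least 1 other. Over all genes tested 21.6% were lower in LOH in every line and 22.9% were higher in every line. Unlike signs were thus common over all genes and not particular to these results. The mix of signs was not tested as a difference between lines, since each line has 1 library of each genotype. The gap from the lowest to the highest line ratio, on the log2 scale, was 1.22 for Rpl7l1, 1.12 for Rpsa, 1.07 for Rpl26, 1.04 for Rpl27 and 0.99 for Rps29. It was 0.83 for Rps27, 0.82 for Rps2, 0.74 for Rpl7, 0.62 for Rplp1, 0.58 for Rplp0, 0.35 for Rpl22 and 0.31 for Rpl5. The median over the 80 ribosomal protein genes spanned 0.57, from -0.44 in line 23 to 0.14 in line 6. Their share of protein-coding counts was higher in LOH in line 6 and lower in lines 23 and 34, and the line differences spanned 2.09 percentage points. In Rps27, Rpl7, Rplp0, Rplp1, Rpsa, Rps29, Rps2, Rpl7l1 and Rpl27 the highest ratio was that of line 6, and in Rpl26 and Rpl22 that of line 34.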

How the results depend on the processing

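The number of ribosomal protein genes called, 1 with edgeR, was 2 with DESeq2, 16 and 15 with limma on log2(TPM + 1) and log2(TPM + 0.1), 0 with the organoid line as a block, and 0 to 4 when a library or a line was left out. Over all genes the 757 calls became 2262 with DESeq2, 1911 and 1753 with limma, 241 with limma without a filter, 213 with the block, and 0 to 2449 with a library or line left out (1422 without line 6). The 6 biogenesis genes became 34 with DESeq2, 59 and 55 with limma, 10 without the filter on counts, 0 with the block and 0 to 77 (52 without line 6). The 1 mitochondrial ribosomal protein gene became 10 with DESeq2, 29 and 26 with limma, 2 with limma without a filter, 0 with the block or upper quartile scaling, and 0 to 25 (11 without line 6). In the block, members, biogenesis and mitochondrial genes had 2, 58 and 15 genes at an unadjusted p under 0.05. The block changed the calls of Rps27l, of Deptor and of these lists, and no other named member. The median of the members, -0.17, was -0.55 in the 3 limma fits and -0.32 to -0.02 with a library or line left out, and stayed below 0 throughout. The difference in share of protein-coding counts, -0.89 points, ran from -1.24 to -0.66 with a single library left out. It was not computed with a whole line left out. The members with no overlap were 10 in CPM and 59 in TPM. The difference between groups in the share of Rps24-201 was 1.73 points as a share of counts and 0.37 as a share of TPM.

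Signs near 0 turned under some settings. In the limma fits Rps27 was -0.12, Rpl7 -0.19, Rpl5 -0.45, Rpl26 -0.15, Rplp0 -0.34, Rps29 -0.03 and Rps28 -0.02. Rplp0 was also -0.01 with DESeq2 or upper quartile scaling and -0.02 without the filter, and Rpsa was 0.01 with at least 10 counts in every library. With a library left out, the signs of Rpl5 (-0.02 to 0.07), Rpl26 (-0.18 to 0.52), Rplp0 (-0.11 to 0.10) and Rpsa (-0.19 to 0.17) turned, and with a line left out Rps27 reached -0.05, Rpl7 -0.07, Rpl5 -0.05, Rpl26 -0.10, Rplp0 -0.14 to 0.16 and Rpsa -0.30 to 0.25. Rps27l ran from -1.69 to -1.09 with a library or line left out and was -1.85 and -1.84 in the limma fits. Apart from the changes tied to fewer samples or genes, the cause was not tested. In simulated data at this size, with the changed genes drawn from all tested genes, 1 of 50 genes changed 2-fold was called. The ribosomal protein genes were not simulated apart, so this does not give the rate of detection for them.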

Other observations

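Of the 80 ribosomal protein genes, 30 hold a snoRNA gene on the same strand within their span, and snoRNAs guide the chemical modification of ribosomal RNA. These 30 had a median log2 fold change of -0.19, with 20 below 0, and the other 50 genes had -0.14, with 36 below 0. A gene on the opposite strand overlapped 22 members, with a median of -0.05, against -0.18 for the 58 others. Fold change and length were weakly related over the 80 genes, which share their libraries. The Pearson correlation of log2 fold change with log2 effective length was -0.22 and Spearman's rho was -0.22. In 4 groups of 20 genes each, from the shortest to the longest, the median log2 fold change was -0.05, -0.12, -0.22 and -0.20.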
